A study of Mus musculus with 6 samples.

Results

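The tumour suppressor p53, encoded by Trp53 in the mouse, is a transcription factor that is held low by the ubiquitin ligase Mdm2 and is released when DNA damage, nucleotide shortage or other stress blocks that inhibition. It then raises genes that stop the cell cycle, start mitochondrial apoptosis, limit growth signalling and restore Mdm2 itself. In the developing mouse kidney this circuit is known from deletions of Mdm2 or Mdm4 in nephron progenitors or the ureteric bud, which release p53 and leave small, poorly branched kidneys.

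The genes described here are 10 direct p53 targets, chosen by symbol: Cdkn1a, Ccng1 and Zmat3 (arrest and growth control), Bax, Bbc3, Phlda3 and Eda2r (cell death and survival signalling), Mdm2 (feedback), and Sesn2 and Trp53inp1 (stress). All 10 were found by Ensembl identifier among the 24749 identifiers of the table, and all 10 passed the filter on low values that left 16899 genes for testing. RNA came from whole dissected kidneys of mixed-strain mouse embryos at E15.5 (E for embryonic day). The knockout group (KO in the figures, 3 libraries) has the genotype Foxd1cre; Yapc/c;Tazc/c, in which Cre recombinase made in the Foxd1-positive stromal lineage deletes loxP-flanked Yap and Taz, and the wild-type group (WT, 3 libraries) is Cre negative. The sources used here do not say whether the Cre-negative embryos carried the floxed alleles or whether each library is a separate embryo. P-values therefore set the difference between the groups only against the spread among these libraries, and that spread may be technical in part. Since the floxed alleles are deleted only in the stromal lineage and every cell type of the organ was sequenced, each value below is an average over deleted and undeleted cells, and fewer cells of a type cannot be told apart from less RNA per cell.

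Levels are the authors' FPKM (fragments per kilobase, corrected for library size). Depth was approximated from the lowest steps of the table, at about 12800000 to 15400000 fragments per library. These steps were sought only within a range of values set beforehand, which bounds the answer, so the depth is not known from it. If it held, 1 FPKM on a 2 kb transcript would stand for about 25.5 to 30.8 fragments, with a counting SD of 18.0% to 19.8%. Wwtr1, the gene of TAZ, was lower in knockout kidneys at 12.9 ± 0.635 FPKM, against 18.8 ± 1.26 FPKM in wild-type kidneys (SD, n = 3 each; limma adjusted p = 0.0235), and Yap1 measured 45.4 ± 2.94 FPKM in knockout and 51.0 ± 4.95 FPKM in wild-type kidneys (adjusted p = 0.378). The Wwtr1 call did not hold when a single knockout library, or wild-type library 2, was left out (adjusted p of 0.0682 to 0.117), nor with equal library sums (0.0516). Summed stromal markers lay between 498 and 534 FPKM in knockout libraries, against 634 to 691 FPKM in wild-type libraries. Of the 10, 2 were called lower, where 0.604% of all genes tested were, and 9 had a log2 change below 0. Col3a1 held the largest part of the sum, with means of 178 FPKM in knockout and 275 FPKM in wild-type kidneys. Tcf21 and Alx1 were nearly level, at 97.4% and 98.0% of the wild-type mean, and Pdgfra was at 111%. Wild-type library 3 stood apart in holding 17.8 FPKM of Th, the tyrosine hydroxylase gene of sympathetic and chromaffin cells, against at most 0.0918 FPKM in the other libraries, so results are also given without it.

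None of the p53 targets passed the test at an adjusted p under 0.05. By limma, with Benjamini-Hochberg adjustment over all genes, 0 of 10 were called higher, where 0.13% of all genes tested were, and 0 of 10 were called lower, where 0.604% were. At an unadjusted p under 0.05 the knockout was higher for 4 of 10 (Cdkn1a, Bax, Sesn2 and Phlda3), where 9.14% of all genes were, and lower for Trp53inp1 alone, where 6.94% were. The 3 knockout libraries lay above the 3 wild-type libraries for the same 4 genes, against 12.5% of all genes tested, and below them for Trp53inp1, against 11.8% of all genes. At an unadjusted p under 0.05 there were 5 higher and 1 lower without wild-type library 3, 4 higher and 0 lower without either of the other wild-type libraries, and 3 higher and 0 lower without any 1 knockout library. The median log2 change of the 10, knockout minus wild type on the log2(FPKM + 1) scale, was 0.11, against -0.002 over all genes tested, with 5 members above 0 and 5 below.

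**Figure D1:**
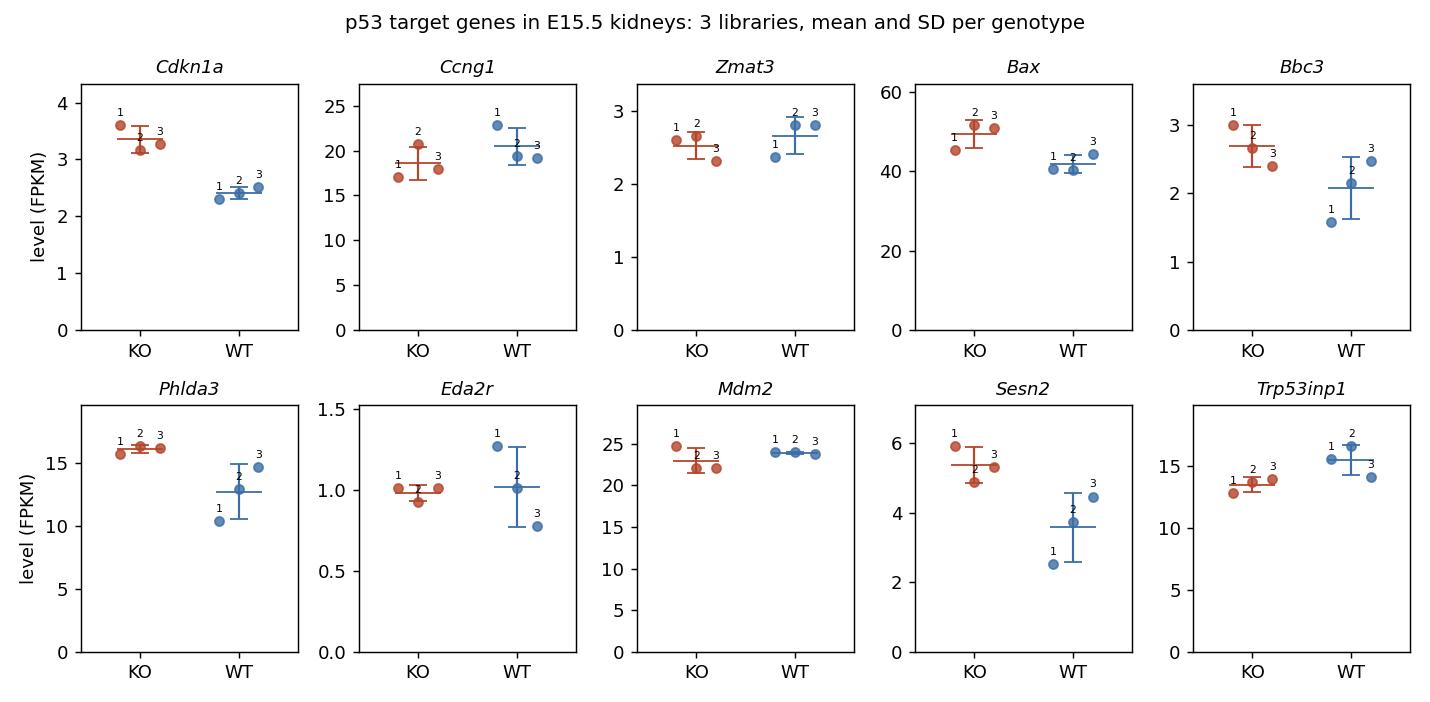
Level in FPKM (y axis, from 0) of each p53 target gene in the 3 knockout (KO, red) and 3 wild-type (WT, blue) libraries, numbered by replicate, with the mean as a bar and the SD as whiskers. The knockout points of Cdkn1a, Bax, Phlda3 and Sesn2 all lie above the wild-type points, those of Trp53inp1 all lie below, and the other 5 genes overlap.

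Among the arrest genes, the groups did not overlap for Cdkn1a and did for Ccng1 and Zmat3, and none of the 3 was called. Cdkn1a (chromosome 17, 29090976 to 29100727, plus strand, GRCm38) encodes p21, the inhibitor of cyclin-dependent kinases through which p53 stops the cell cycle. It measured 3.61, 3.16 and 3.27 FPKM in knockout libraries 1, 2 and 3, against 2.31, 2.40 and 2.52 FPKM in wild-type libraries 1, 2 and 3. Every knockout library was higher than every wild-type library, and the gap between the groups was wider than the range within either one. These levels are low, and the wild-type SD was 0.107 FPKM on a mean of 2.41 FPKM. A spread taken from 3 libraries is itself uncertain. The knockout mean was 139% of the wild-type mean, a log2 change of 0.35 (SE 0.09, 95% interval 0.14 to 0.55). Its adjusted p was 0.146, and the exact two-sided permutation p of 0.1 is the smallest that 3 against 3 libraries allow. It had the lowest p of the 10 members, at rank 532 of 16899 genes. An unconfirmed gene model on the opposite strand, AC167363.2, shares 273 exon bases with Cdkn1a, so reads of both would be counted together if strand was not kept.

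Ccng1 (chromosome 11, 40748552 to 40755311) encodes cyclin G1, an atypical cyclin and one of the first p53 targets described. It measured 17.1, 20.7 and 18.0 FPKM in knockout libraries and 22.9, 19.4 and 19.2 FPKM in wild-type libraries 1, 2 and 3. Its groups overlapped, because knockout library 2 lay above wild-type libraries 2 and 3, and wild-type library 1 was the highest. The log2 change was -0.13 with a 95% interval from -0.35 to 0.09, and it was -0.05 without wild-type library 1, -0.08 without knockout library 1 and -0.20 without knockout library 2. Zmat3 (chromosome 3, 32334792 to 32366014), an RNA-binding zinc finger protein that takes part in p53-dependent growth suppression, measured 2.52 ± 0.183 FPKM in knockout and 2.66 ± 0.252 FPKM in wild-type kidneys (SD, n = 3 each). Its log2 change of -0.05 had a 95% interval from -0.28 to 0.17 and lay between -0.11 and -0.01 when single libraries were left out.

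The p53 protein binds pairs of a short half-site, and the sequences before the gene starts are shown here because the members with and without a difference can be set side by side. RefSeq windows (GRCm38.p6, 250 bases before to 50 after each start) were found for 8 of the 10 members, over 11 windows, and not for Zmat3 and Trp53inp1. The p53 half-site consensus of 10 bases reads the same on both strands. An exact match was found for 4 members, Cdkn1a, Bax, Mdm2 and Ccng1, in 1 window each of the 11. Of all 32851 windows 8.36% hold one, a share by window and not by gene. The 250 bases before those starts are printed 5′ to 3′ on the gene's strand, with the half-sites in capitals. The windows are chr17:29090729-29090978 (plus strand) for Cdkn1a, chr7:45466899-45467148 (minus strand) for Bax, chr10:117710759-117711008 (minus strand) for Mdm2 and chr11:40755287-40755536 (minus strand) for Ccng1.
Cdkn1a: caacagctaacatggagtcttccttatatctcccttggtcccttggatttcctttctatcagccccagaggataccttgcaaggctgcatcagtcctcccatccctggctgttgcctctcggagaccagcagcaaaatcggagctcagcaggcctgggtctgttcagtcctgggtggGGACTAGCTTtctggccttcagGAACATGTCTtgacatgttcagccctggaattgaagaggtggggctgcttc
Bax: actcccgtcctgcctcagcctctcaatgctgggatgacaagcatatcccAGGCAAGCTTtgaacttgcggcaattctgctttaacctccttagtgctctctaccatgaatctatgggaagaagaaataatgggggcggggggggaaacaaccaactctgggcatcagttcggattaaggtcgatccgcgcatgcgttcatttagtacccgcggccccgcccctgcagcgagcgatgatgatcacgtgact
Mdm2: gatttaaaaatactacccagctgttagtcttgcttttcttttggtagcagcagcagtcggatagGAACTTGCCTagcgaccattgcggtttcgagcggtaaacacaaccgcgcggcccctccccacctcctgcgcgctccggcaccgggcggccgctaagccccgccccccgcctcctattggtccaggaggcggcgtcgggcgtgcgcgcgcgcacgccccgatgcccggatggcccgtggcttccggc
Ccng1: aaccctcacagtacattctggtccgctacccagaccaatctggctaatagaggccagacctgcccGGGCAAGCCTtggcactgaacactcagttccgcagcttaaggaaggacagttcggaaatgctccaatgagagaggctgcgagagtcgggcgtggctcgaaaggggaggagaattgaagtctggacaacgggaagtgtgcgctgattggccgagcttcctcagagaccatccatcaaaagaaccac
Cdkn1a has more than one RefSeq start, and the match lies before the upstream one, 2790 bases ahead of the other, whose window holds none. Its exact matches, GGACTAGCTT and GAACATGTCT, begin 73 and 51 bases before that start with 12 bases between them. The 10 bases directly after GAACATGTCT, tgacatgttc, miss the consensus only in their first base and so were not marked. Which of these stretches form a p53 site cannot be read from the capitals. Of all windows, 0.0731% (24) hold a pair of exact matches spaced by 0 to 13 bases. The pair was looked for after the single matches had been seen. The other genes hold 1 half-site each, AGGCAAGCTT 201 bases before the start of Bax, GAACTTGCCT 186 bases before that of Mdm2 and GGGCAAGCCT 185 bases before that of Ccng1. Of the 4 genes with a match, Cdkn1a and Bax had groups that did not overlap, and Mdm2 and Ccng1 had groups that did. Sesn2 and Phlda3, whose groups did not overlap, hold no exact match in these windows, which says only that these letters are not there. A match is a description of the sequence, and no binding was measured in these kidneys.

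The cell death genes split in the same way, with Bax and Phlda3 apart, and Bbc3 and Eda2r overlapping. Bax (chromosome 7, 45461697 to 45466898) encodes the BCL2 family protein that opens the outer mitochondrial membrane. It measured 45.4, 51.8 and 50.9 FPKM in knockout libraries 1, 2 and 3, against 40.6, 40.4 and 44.5 FPKM in wild-type libraries. All knockout values were above all wild-type values, although knockout library 1 and wild-type library 3 lay close to each other. The knockout mean was 118% of wild type, a log2 change of 0.23 (SE 0.07, 95% interval 0.07 to 0.39, adjusted p = 0.189, exact permutation p = 0.1). Bax shares 192 exon bases with the gene model Gm45808 on its own strand, between which fragments may have been split.

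Phlda3 (chromosome 1, 135766119 to 135769136) encodes a pleckstrin homology domain protein that keeps the kinase Akt from the membrane. It measured 15.7, 16.3 and 16.2 FPKM in knockout libraries, against 10.4, 12.9 and 14.7 FPKM in wild-type libraries 1, 2 and 3. The knockout libraries were close together, while the wild-type libraries were spread out and library 3 came near the knockout values. The knockout mean was 127% of wild type, a log2 change of 0.33 (SE 0.11, adjusted p = 0.226), which was 0.21 without wild-type library 1. Bbc3 (chromosome 7, 16308393 to 16318205) encodes PUMA, a BH3-only protein that blocks the survival members of the BCL2 family. It measured 3.00, 2.66 and 2.40 FPKM in knockout libraries, against 1.58, 2.15 and 2.47 FPKM in wild-type libraries 1, 2 and 3. Knockout library 3 lay just below wild-type library 3, so the groups overlapped. Its log2 change was 0.27 (95% interval -0.03 to 0.58, adjusted p = 0.361, exact permutation p = 0.2), and it was 0.15 without wild-type library 1. Eda2r (chromosome X, 97333840 to 97377216), a receptor of the TNF receptor superfamily for ectodysplasin A2, was the lowest of the 10. It measured 0.983 ± 0.0502 FPKM in knockout and 1.02 ± 0.248 FPKM in wild-type kidneys (SD, n = 3 each), and its wild-type range of 0.776 to 1.27 FPKM enclosed all knockout values. At this low level a library may hold few fragments of the gene. Its log2 change of -0.02 (95% interval -0.29 to 0.25) turned to between 0.00159 and 0.07 under 3 of 15 alternative settings.

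Mdm2 (chromosome 10, 117688875 to 117710758), the p53 target that closes the feedback loop, was nearly level. It measured 24.7, 22.1 and 22.1 FPKM in knockout libraries 1, 2 and 3, against 24.0, 24.0 and 23.8 FPKM in wild-type libraries. Knockout library 1 was the highest of the 6 and the other knockout libraries were the lowest. Its log2 change was -0.06 with a 95% interval from -0.20 to 0.09 (adjusted p = 0.681). It was -0.11 without knockout library 1 and -0.03 without knockout library 2 or 3.

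Of the stress genes, neither of which was called, Sesn2 lay above wild type in every knockout library and Trp53inp1 below. Sesn2 (chromosome 4, 132492032 to 132510501) encodes sestrin 2, a leucine-binding protein that restrains the growth kinase complex mTORC1, and is a target of the stress factor ATF4 as well as of p53. It measured 5.90, 4.89 and 5.32 FPKM in knockout libraries, against 2.51, 3.73 and 4.46 FPKM in wild-type libraries 1, 2 and 3. All knockout libraries were above all wild-type libraries, among which library 1 was far lower than library 3. The knockout mean was 150% of wild type, the largest ratio among the 10. The log2 change was 0.50 (SE 0.16, 95% interval 0.12 to 0.88, adjusted p = 0.214, exact permutation p = 0.1), and 0.32 without wild-type library 1. Trp53inp1 (chromosome 4, 11156431 to 11174379) encodes a p53-induced nuclear protein that also acts in autophagy. It measured 12.8, 13.7 and 14.0 FPKM in knockout libraries, against 15.6, 16.6 and 14.1 FPKM in wild-type libraries 1, 2 and 3. The groups did not overlap, by a margin between knockout library 3 and wild-type library 3 that is smaller than the spread within either group. Its knockout mean was 87.4% of wild type, a log2 change of -0.18 (SE 0.07, adjusted p = 0.298).

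**Figure D2:**
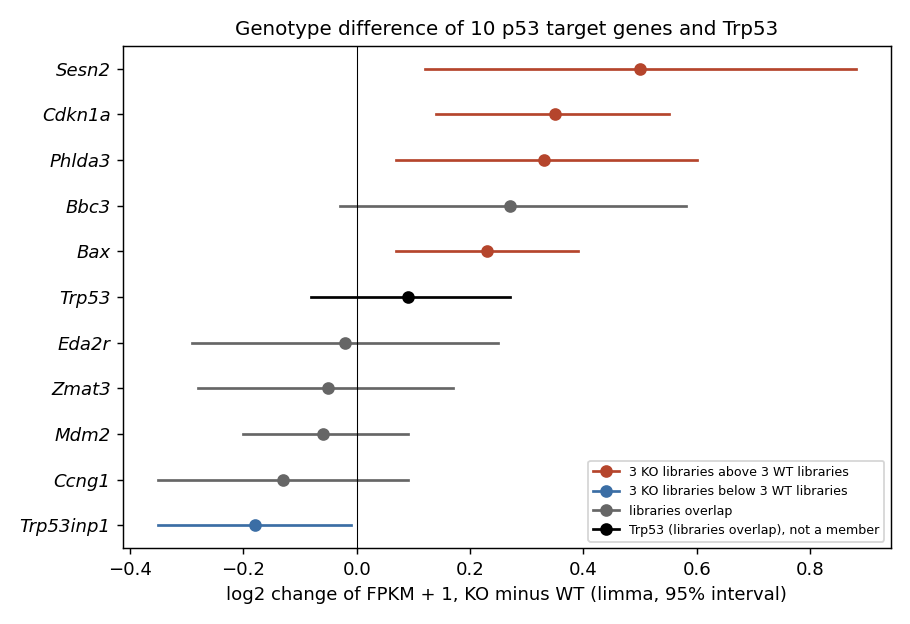
Log2 change of FPKM + 1, knockout minus wild type (x axis), with its 95% interval from limma, for the 10 p53 targets and Trp53. Points run from -0.18 for Trp53inp1 to 0.50 for Sesn2, and the intervals of Sesn2, Cdkn1a, Phlda3 and Bax lie above 0 and that of Trp53inp1 lies below 0, although no adjusted p was under 0.05.

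Ordered by level, Bax was the highest member in every library and Eda2r the lowest. Mdm2 came next to Bax and Ccng1 after it, and their ranges did not overlap within either genotype. Phlda3 (15.7 to 16.3 FPKM) lay above Trp53inp1 (12.8 to 14.0 FPKM) in knockout libraries, whereas in wild-type libraries Phlda3 (10.4 to 14.7 FPKM) and Trp53inp1 (14.1 to 16.6 FPKM) overlapped. Sesn2 lay apart from Cdkn1a in knockout libraries. In wild-type libraries the ranges of Sesn2, Zmat3, Cdkn1a and Bbc3 ran into each other, so that those neighbours were not separated.

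The spread within wild-type kidneys was shared by several members. Wild-type library 1 was the lowest of all 6 libraries for Cdkn1a, Bbc3, Phlda3 and Sesn2, and the highest for Ccng1 and Eda2r. In that library the log2 level of Sesn2 relative to its mean over the 6 libraries was -0.608, and that of Phlda3 was -0.42. In wild-type library 3 the same quantity was 0.032 for Sesn2 and 0.049 for Phlda3, on the side of the mean where the knockout libraries lay. Knockout library 1 was the highest of the 6 for Cdkn1a, Mdm2, Bbc3 and Sesn2. Without wild-type library 3 the log2 changes were 0.37 for Cdkn1a, 0.28 for Bax, 0.44 for Phlda3, 0.64 for Sesn2 and 0.37 for Bbc3, with adjusted p between 0.0886 and 0.201. Without wild-type library 1 they were 0.33 for Cdkn1a, 0.21 for Bax, 0.21 for Phlda3, 0.32 for Sesn2 and 0.15 for Bbc3, with adjusted p between 0.258 and 0.61.

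**Figure D3:**
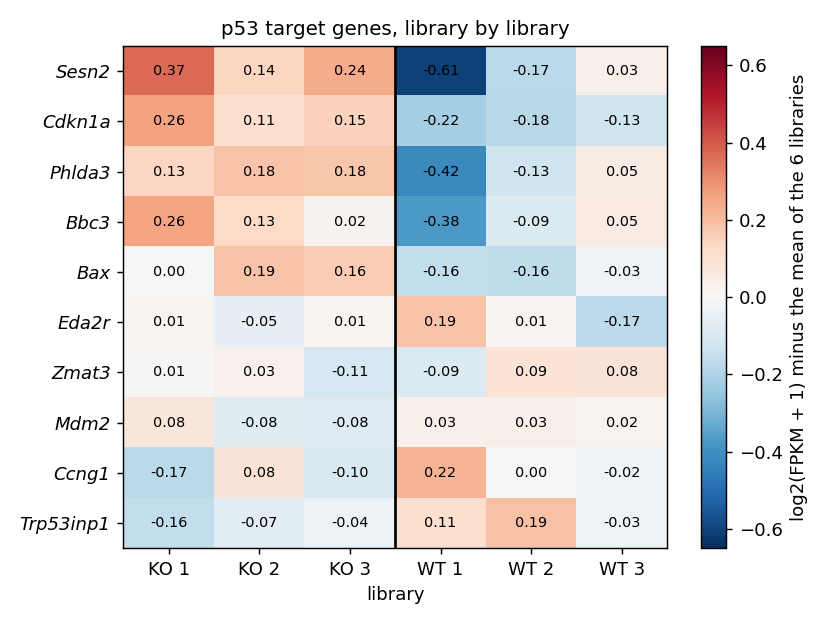
Log2(FPKM + 1) of each p53 target minus its mean over the 6 libraries (colour and printed value), with knockout libraries left of the line and wild-type libraries right of it. Sesn2, Phlda3 and Bbc3 are lowest in wild-type library 1 and near 0 in wild-type library 3.

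Trp53 itself overlapped between the genotypes. It measured 28.0, 25.3 and 26.0 FPKM in knockout libraries, against 22.4, 25.9 and 26.1 FPKM in wild-type libraries 1, 2 and 3, and wild-type library 1 alone stood below the rest. Its log2 change was 0.09 (95% interval -0.08 to 0.27, adjusted p = 0.592), and it was 0.02 without wild-type library 1 and 0.05 without knockout library 1. RNA of Trp53 says little about p53 activity, which is set mainly through the stability of the protein. Of 15 genes of the p53 family and its regulators, 12 were tested and limma called 0. Of the 12, 4 lay above 0 (33.3%, against 49.6% of all genes tested), and the median log2 change was -0.02. At an unadjusted p under 0.05, where 9.14% of all genes tested were higher and 6.94% lower, 0 were higher and 1 was lower. That gene was Mdm4, the partner of Mdm2 that masks the activating part of p53, with 31.2, 29.2 and 30.5 FPKM in knockout libraries, against 36.2, 35.1 and 31.8 FPKM in wild-type libraries. Its knockout values were all below its wild-type values, with a log2 change of -0.17 (adjusted p = 0.253). Ppm1d, the phosphatase that switches p53 signalling off and is itself a p53 target, had a log2 change of 0.08 (adjusted p = 0.588), which was 0.04 without knockout library 1. The relatives Trp63 and Trp73 were under 0.6 FPKM in every library, and Cdkn2a, the gene of the Mdm2 inhibitor ARF, was listed at 0 in 5 of 6 libraries.

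A wider set of 38 further p53 targets gave the same count of calls as the members. Of 36 tested, limma called 0. At an unadjusted p under 0.05, 3 lay higher and 1 lay lower in knockout kidneys, where 9.14% and 6.94% of all genes tested did. Of the 36, 22 lay above 0 (61.1%, against 49.6% of all genes tested). Their median log2 change was 0.07. Gadd45a, a growth arrest and DNA damage gene, had the smallest p. It measured 13.6, 12.6 and 15.3 FPKM in knockout libraries, against 12.3, 8.84 and 10.3 FPKM in wild-type libraries, without overlap but with knockout library 2 close to wild-type library 1 (log2 0.37, adjusted p = 0.214). Pmaip1, the gene of the BH3-only protein NOXA, measured 1.66 ± 0.0480 FPKM in knockout and 1.23 ± 0.170 FPKM in wild-type kidneys (SD, n = 3 each; log2 0.26, adjusted p = 0.257). Among 11 tested relatives of the members 0 were called, and Sesn1, a sestrin and p53 target like Sesn2, lay on the other side of 0. Sesn1 measured 15.0, 16.7 and 16.3 FPKM in knockout libraries, against 18.8, 17.5 and 17.0 FPKM in wild-type libraries (log2 -0.14, adjusted p = 0.349).

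One gene next to the members did pass the test. Among 19 genes of the BCL2 family and the caspases, Bmf, a BH3-only protein that binds survival members of the BCL2 family as PUMA does, rose in knockout kidneys. It measured 20.5, 21.5 and 20.8 FPKM in knockout libraries, against 14.1, 15.3 and 15.7 FPKM in wild-type libraries 1, 2 and 3. The groups lay well apart, with a knockout mean of 139% of wild type and a log2 change of 0.45 (SE 0.06, limma adjusted p = 0.0235). The call was lost without any 1 knockout library or without wild-type library 2 (log2 between 0.43 and 0.47, adjusted p = 0.0887, 0.13, 0.117 and 0.106), without the trend option (adjusted p = 0.0513), and when libraries were rescaled to equal sums (adjusted p = 0.0502). Bcl2l11, the gene of the BH3-only protein BIM, had a log2 change of 0.18 (adjusted p = 0.254). The list's median log2 change was 0.06, and 14 of 19 genes lay above 0 (73.7%, against 49.6% of all genes tested).

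Cell cycle genes that p53 is known to lower through p21 were counted next. Of 23 tested, limma called 0. At an unadjusted p under 0.05, 5 lay higher and 1 lay lower in knockout kidneys, where 9.14% and 6.94% of all genes tested did. Of the 23, 15 lay above 0 (65.2%, against 49.6% of all genes tested), and the median log2 change was 0.03. Plk1, a kinase of mitosis, measured 27.2, 24.8 and 24.5 FPKM in knockout libraries, against 18.3, 21.5 and 20.8 FPKM in wild-type libraries. Its groups did not overlap (log2 0.32, adjusted p = 0.129), and neither did those of Aurkb, the aurora kinase B gene (log2 0.28, adjusted p = 0.169). Plk1 and Aurkb had the smallest p of the list and lay on the same side of 0 as Cdkn1a, while 8 of the 23 genes lay below 0. The gene that was lower at an unadjusted p under 0.05 was Kif23, at 89.8% of its wild-type mean. Its groups did not overlap either (log2 -0.15, adjusted p = 0.228).

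**Figure D4:**
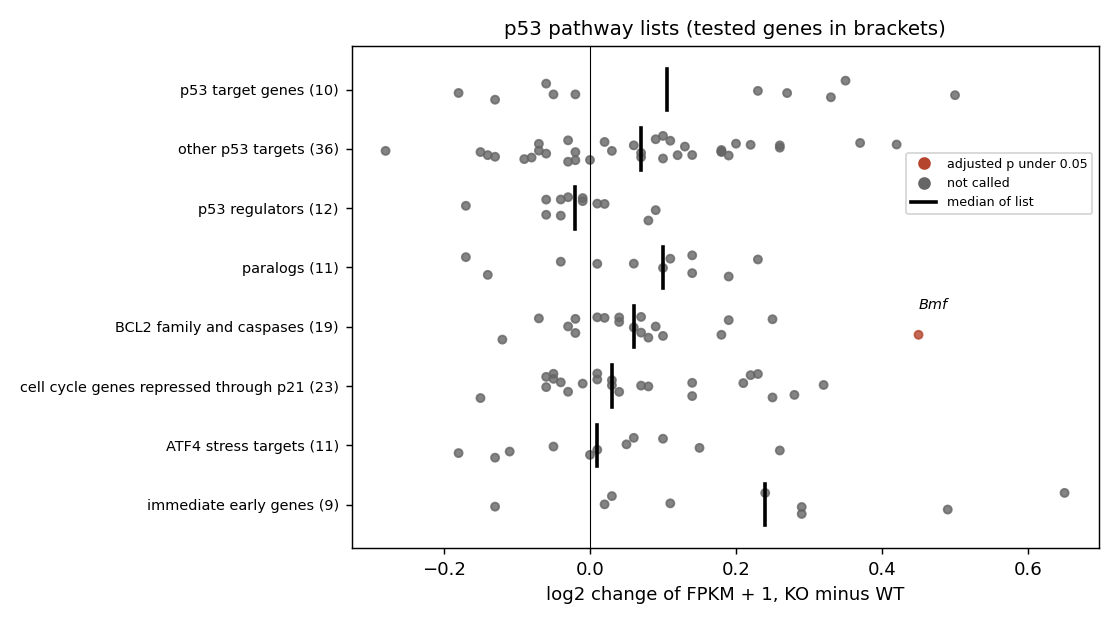
Log2 change of FPKM + 1, knockout minus wild type (x axis), of every tested gene in the p53 target list and 7 lists around it, 1 point a gene, with the list's median as a black bar and called genes in red. Bmf is the only called gene, and the medians lie between -0.02 for the p53 regulators and 0.24 for the immediate early genes.

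Genes of other stress responses were measured beside the p53 targets. The 10 genes of the immediate early list, induced within minutes by handling and other acute stress, summed to 43.2 to 45.5 FPKM in knockout libraries, against 26.8, 32.4 and 37.5 FPKM in wild-type libraries 1, 2 and 3. Wild-type library 1 was thus the lowest and library 3 the highest wild-type library for this sum, as for Sesn2, Phlda3 and Bbc3. Jun (mean 12.9 FPKM in knockout, 7.94 FPKM in wild-type kidneys) and Ier2 (15.2 and 10.6 FPKM) held the largest parts of it. Of 9 tested, limma called 0, while 8 lay above 0 (88.9%, against 49.6% of all genes tested). Of these, 3 had an unadjusted p under 0.05, where 9.14% of all genes were higher. The log2 change was 0.49 for Ier2 (adjusted p = 0.118) and 0.65 for Jun (adjusted p = 0.0894). It was 0.02 for Fos, 0.03 for Hspa1a and -0.13 for Atf3. Hspa1b, the other gene with an unadjusted p under 0.05, had a log2 change of 0.29 (adjusted p = 0.265). Jun was called when wild-type library 3 was left out (adjusted p = 0.0257). The part of these genes in the p53 target values was not tested.

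Of 11 tested ATF4 targets, the list that would share Sesn2, limma called 0. At an unadjusted p under 0.05, 1 lay higher and 1 lay lower, where 9.14% and 6.94% of all genes tested did. The median log2 change was 0.01. The log2 change was -0.18 for Slc7a11, the cystine transporter (adjusted p = 0.248), and 0.15 for Phgdh, the first enzyme of serine synthesis (adjusted p = 0.311). Trib3 and Chac1, which are strongly induced by ATF4, were too low to be tested.

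Cell type markers were summed in each library. The 8 ureteric bud and collecting duct markers summed to 302 to 322 FPKM in knockout libraries, against 260 to 277 FPKM in wild-type libraries, with 6 of 8 higher at an unadjusted p under 0.05 (9.14% of all genes tested were), 0 called and none at 0. The 8 nephron epithelium markers summed to 137 to 154 FPKM in knockout libraries, against 118 to 135 FPKM in wild-type libraries. Of these, 1 was called higher, where 0.13% of all genes tested were. That gene was Wnt4, a signal of the forming nephron (log2 0.63, limma adjusted p = 0.0402). Its call was lost when any knockout library, or wild-type library 2, was left out (adjusted p of 0.139 to 0.166). The call was also lost with no filter on low values (0.0628), with equal library sums (0.0882), and without the robust (0.0759) or trend option (0.0797). The 6 pericyte and smooth muscle markers summed to 66.3 to 79.7 FPKM in knockout libraries, against 104 to 111 FPKM in wild-type libraries. Of the 6, 2 were called lower, where 0.604% of all genes tested were, and 5 had a log2 change below 0. Cspg4 lay above 0, at 103% of its wild-type mean, and the groups of Myh11 overlapped. Nephron progenitor sums overlapped, at 106 to 114 FPKM in knockout and 102 to 107 FPKM in wild-type libraries, with 0 of 6 called. The sums of endothelial, macrophage and red blood cell markers overlapped as well, with 0 called. The part of these cell types in the p53 target values was not tested.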

How the data were processed

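The submitters' processing notes name bcl2fastq 2.17.1.14, Salmon and GRCm38 (mm10). The sources used here state no strandedness, annotation release or filter. FPKM is the unit the authors deposited, with 1 column per library. Relative to the geometric mean of each gene, every library had a median log2 ratio of 0.0038, so a scaling between libraries is already in them. No 2 libraries held identical values. Depth was approximated from the lowest step of values on genes with 1 transcript of at least 2 kb, sought within a preset range that bounds the result.

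Symbols were matched for 24469 of 24749 identifiers, and positions and overlaps were read from GENCODE M21 (GRCm38). A gene was tested where its mean reached 0.5 FPKM (16899 genes). Log2(FPKM + 1), with a pseudocount of 1, was fitted with limma 3.58.1 in R 4.3.3 (genotype as the only term, trend and robust options), with Benjamini-Hochberg adjustment over all genes and a threshold of 0.05. This scale understates changes of low genes. Single genes also had an exact permutation test over the 20 assignments of libraries. The procedure was tested on simulated data. Recovery was required there only for changes larger than that of any member, so it does not cover changes of their size.

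The members and lists were chosen with earlier results of these data known. Named genes are the members, Trp53, Yap1, Wwtr1 and, from each pathway list, the called genes or, where fewer than 2 were called, the 2 genes with the smallest p. Th, Trp63, Trp73, Cdkn2a, Trib3 and Chac1 were named after their values were seen, as were Wnt4, Bcl2, Bcl2l1, Bcl2l2 and Mcl1. So were Col3a1, Pdgfra, Tcf21, Alx1, Cspg4, Myh11, Kif23, Fos, Hspa1a, Hspa1b and Atf3. The 15 alternatives varied the pseudocount, filter, scaling, moderation, replicate block and left-out library.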

Additional observations from a re-analysis of the deposited data

How the results depend on the processing

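For the p53 targets, 0 were called higher and 0 lower under each of the 15 alternatives run. All 10 kept their direction except Eda2r, whose log2 change was 0.01 with quantile normalization, 0.00159 without knockout library 2 and 0.07 without wild-type library 1 (-0.11 to 0.07 over the left-out libraries). The adjusted p of Cdkn1a lay between 0.105 and 0.353 and that of Phlda3 between 0.0886 and 0.449. The unadjusted p of Cdkn1a and Bax was under 0.05 in all 15, that of Sesn2 in 14, of Phlda3 in 13 and of Trp53inp1 in 8. Over all genes, 124 were called (22 higher, 102 lower). Leaving out 1 library gave 52 to 147 called genes, 7 to 51 higher and 45 to 96 lower. Rescaling to equal sums and dropping the trend option each left 12 higher. Among the genes of the pathway lists, 1 was called higher (Bmf), with 0 under equal sums, without the trend option and with the replicate block, and 0 to 2 when a library was left out. The causes were not tested, though leaving out a library also leaves fewer samples. Same-numbered libraries did not deviate together (correlations across genes of 0.024, -0.042 and 0.05), so the numbers do not pair them. With the replicate block, 32 genes were called, 2 higher and 30 lower, and 0 p53 targets. The calls of Wwtr1 (log2 -0.51, adjusted p = 0.108), Bmf (0.45, 0.121) and Wnt4 (0.63, 0.169) were lost with it. The 3 libraries a side and the low levels of Eda2r, Zmat3, Bbc3 and Cdkn1a limit what can be seen of these genes.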

Other observations

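Bax was also set beside the survival members of its family. Bcl2, Bcl2l1, Bcl2l2 and Mcl1, which hold Bax in check, had log2 changes of -0.02, 0.02, 0.09 and -0.03, and 0 of them were called. Their summed level was 90.4, 89.8 and 90.6 FPKM in knockout libraries 1, 2 and 3, against 87.1, 93.7 and 90.3 FPKM in wild-type libraries. The ratio of Bax to that sum was 0.502, 0.577 and 0.562 in knockout libraries, against 0.466, 0.431 and 0.493 in wild-type libraries. All knockout ratios were above all wild-type ratios, with knockout library 1 next to wild-type library 3. The ratio was formed after the values were seen and was not tested.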
